A study of Arabidopsis thaliana with 12 samples.

Results

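The splicing calls of cold-treated Arabidopsis thaliana seedlings were followed here for 9 genes of the splicing machinery. These genes are U1-70K (AT3G50670) and PRP39 (AT1G04080) of the U1 particle, the U2AF large subunits ATU2AF65A (AT4G36690) and U2AF65B (AT1G60900), the splicing regulator SUA (AT3G54230), the Sm protein genes SMD1A (AT3G07590), SmEb (AT2G18740) and SmEa (AT4G30330), and LSM3A (AT1G21190). The members were taken by gene identifier, and all events listed under these identifiers were used. Of the 9 genes, 7 had an event, with 12 distinct events among the 1911 distinct events and 1502 genes of the 3 event tables. Those 7 were chosen by their listing and FDR in these same tables, and SmEb and SmEa were included as the mutated gene and its paralog, so the counts below are a description and carry no test.

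The seedlings were 12 days old. The genotypes were the wild type Col-0 and the mutants smeb-1 and smeb-2, which carry lesions in SmEb. Libraries were made at 22 °C or following 24 h at 4 °C, with 2 replicates in each of 6 groups and 12 libraries in all. The labels give the control both as 24 h at 22 °C and as 0 h at 4 °C, are silent on whether replicates were separate cultures, and do not describe the lesions. The RNA came from whole seedlings, so tissues are mixed. The tables report splicing in smeb at 22 °C, in smeb under chilling and in Col-0 under chilling. Neither the groups contrasted nor the way of joining the alleles is stated. An event comes with its gene, its interval, its kind and its false discovery rate (FDR). No event has a value per sample, a read count, a size or a direction. The depth is therefore unknown, and an event is described only as listed. One missing from a table may have failed the FDR limit, may have been left out although within it, or may never have been tested. SmEb itself was not listed, and without read counts its level could not be used to check the genotype labels.

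Introns are removed by the spliceosome, whose U1 particle pairs with the 5′ splice site while U2AF binds the polypyrimidine tract and the AG of the 3′ splice site. Sm proteins form a ring around the U1, U2, U4 and U5 small nuclear RNAs, and LSm proteins form related rings on U6 or, in the cytoplasm, on messenger RNA during decay. Many genes of splicing factors are themselves alternatively spliced in plants. Some of the resulting forms carry an early stop codon, and a stop codon well upstream of an exon junction can mark a messenger RNA for nonsense-mediated decay.

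The table of chilled Col-0 held 8 events of 5 of the 9 genes, that of chilled smeb 10 events of 5 genes, and that of smeb at 22 °C 3 events of 2 genes. Among all tested events, 13.8% of 9710, 13.2% of 10308 and 0.319% of 10657 were listed in the same order of tables. These totals, and the ranks given below, were recovered from the FDR and a column headed as an adjusted p-value, which was taken to be the p-value before FDR adjustment. That reading is an inference from the values. At an FDR under 0.01, the members had 7, 8 and 2 events, beside 9.73%, 10.4% and 0.272% of all tested events. At an FDR under 0.001, they had 7, 8 and 1, beside 6.6%, 7.66% and 0.206%. An FDR of 0 stood beside 6, 6 and 0 of the member events, and beside 2.54%, 3.14% and 0.103% of all tested events. The member events are all listed events, whereas these shares, and those at both limits above, are over tested events. The member counts therefore cannot be set against them. Among listed events, 247 of 1339 in chilled Col-0 and 324 of 1359 in chilled smeb had an FDR of 0. The 6 member events were the same in both chilling tables. Over all genes, 167 events had an FDR of 0 in both, which was 67.6% of the 247 of Col-0 and 51.5% of the 324 of smeb. The choice of the genes used these calls, and nothing is read from the counts. Of the member events, 7 were in both chilling tables, which was 87.5% of those of Col-0 and 70.0% of those of smeb. Over all genes, 807 events were in both, which was 60.3% of those of Col-0 and 59.4% of those of smeb. Whether libraries are shared between the comparisons is not stated, and the members were chosen with these listings known. SUA was listed in chilled Col-0 alone, LSM3A in chilled smeb alone and SMD1A in smeb at 22 °C alone. U1-70K was the only member in all 3 tables.

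**Figure D1:**
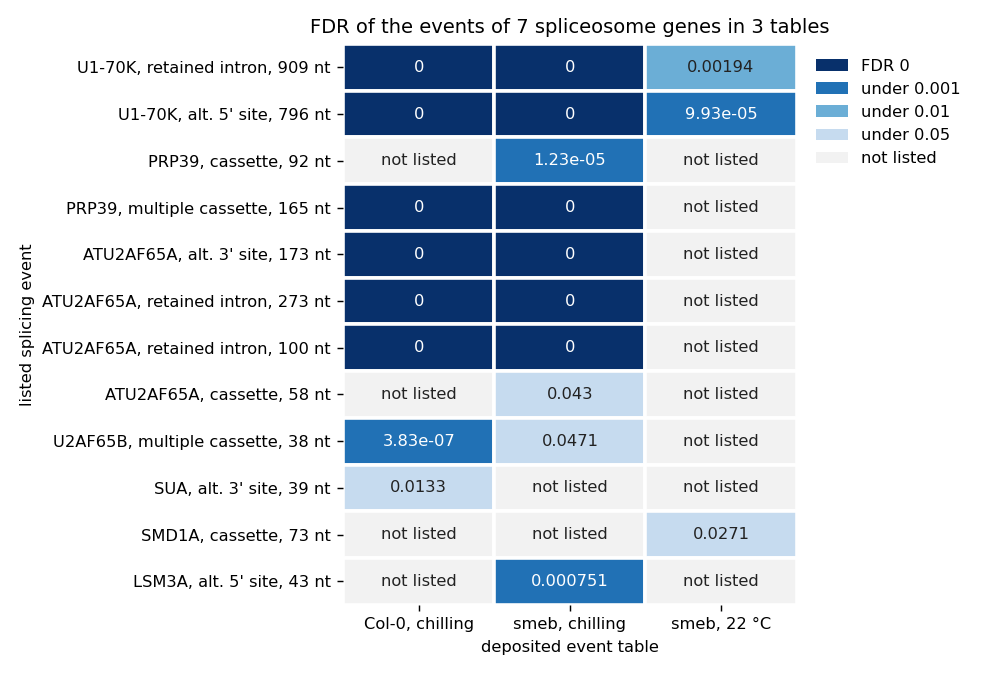
The FDR in the authors' deposited tables is given for each of the 12 events (rows) in each of the 3 tables (columns), with darker blue for a lower FDR and grey where an event is not listed. The 6 events at an FDR of 0 in chilled Col-0 are the 6 at an FDR of 0 in chilled smeb.

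U1-70K encodes the protein of the U1 particle that contacts U1 RNA and SR proteins. Its longest intron, intron 6 (909 nt, chromosome 3, 18827440 to 18828348, minus strand, within the coding span), carried both of its events. The intron was listed as retained, and an alternative 5′ splice site was listed inside it, at which the exon is 796 nt longer. An intron of 113 nt then remains if the annotated 3′ splice site is used, which the listing does not give. Both events had an FDR of 0 in the authors' deposited tables of chilled Col-0 and chilled smeb. At 22 °C, the authors' deposited table of smeb gave an FDR of 0.00194 for the retained intron and 9.93e-05 for the alternative site. The alternative site took rank 21 of 10657 tested events. Each of these rows stands 2 times in the 22 °C table and was counted a single time. The sites are shown because the inner 5′ splice site is not annotated. It was modelled with the same 3′ splice site as the annotated one. Capitals mark the first or last pair of intron bases.
U1-70K intron 6, annotated 5′ splice site (chr3:18828330-18828354, minus strand): aaacggGTaggttattctgagcatt
U1-70K intron 6, inner 5′ splice site (chr3:18827534-18827558, minus strand): ataaagGTtgcctgccttatagagc
U1-70K intron 6, 3′ splice site (chr3:18827435-18827459, minus strand): cttcttctgaaacttctcAGgttca
Each site was scored by a weight matrix of the 131152 annotated introns of protein-coding genes and ranked among them. The annotated 5′ splice site was at percentile 28.1 and the inner site at percentile 4.71. Translated from the annotated start codon, both forms reach a stop codon at position 18828232 inside the intron. The coding length is then 615 nt, that of the annotated transcript AT3G50670.2, in place of 1284 nt in AT3G50670.1.

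PRP39, related to a U1 component of yeast, had 2 events in different introns. The interval 1054285 to 1054528 on chromosome 1 was listed as a multiple cassette and its FDR was 0 in the authors' deposited tables of chilled Col-0 and chilled smeb. It holds exons 7 and 8 of the annotated transcript AT1G04080.3, of 101 and 64 nt, which are 79 nt apart and absent from AT1G04080.1. Together they add 165 nt, which keeps the frame and lengthens the coding sequence from 2307 to 2472 nt. A cassette of 92 nt in intron 4 (1053096 to 1053187), the longest intron of the gene, was listed for chilled smeb alone (FDR 1.23e-05 in the authors' deposited table, rank 564 of 10308). Its start is annotated in AT1G04080.5 and its end in AT1G04080.2, and no annotated transcript has it as an exon of its own. With it, translation of AT1G04080.1 would stop at 1053138, after 618 nt. The cassette joins a 3′ splice site among the lowest-scoring of all annotated sites (percentile 0.145) with a 5′ splice site among the highest (percentile 98.1), and the pair is shown for that contrast.
PRP39 cassette, 3′ splice site (chr1:1053076-1053100, plus strand): actgtcaccctcccccgaAGttcaa
PRP39 cassette, 5′ splice site (chr1:1053182-1053206, plus strand): aggaagGTaaatgcagtgtttggca

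ATU2AF65A, the U2AF subunit that binds the polypyrimidine tract, had the most events of the 9 genes, with 4 for chilled smeb and 3 for Col-0. The 3 events of Col-0 were listed in smeb as well, and each had FDR 0 in the authors' deposited tables. A retained intron and an alternative 3′ splice site lie in intron 11 (273 nt, chromosome 4, 17294431 to 17294703, minus strand). The alternative site is 173 nt upstream of the annotated end of that intron and, with the 5′ splice site unchanged, leaves an intron of 100 nt. Both 3′ splice sites are annotated, at percentiles 56.4 and 49.3, and are shown to compare the tracts before the AG.
ATU2AF65A intron 11, downstream 3′ splice site (chr4:17294426-17294450, minus strand): ctttaactcttaaaatgcAGgtgct
ATU2AF65A intron 11, upstream 3′ splice site (chr4:17294599-17294623, minus strand): ttggttgtgctgttttacAGccttt
When modelled, these forms alter only the end of the coding sequence. Each has 1 exon junction after its stop codon, at 59 nt for the upstream site and 228 nt for the retained intron. Neither protein nor decay was measured. The coding length is 1722 nt in AT4G36690.1, 1698 nt with the upstream site, as in AT4G36690.3, and 1629 nt with the intron retained, as in AT4G36690.2.

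The remaining event of ATU2AF65A in both chilling tables was listed as a retained intron but is a stretch of 100 nt (17295298 to 17295397) inside exon 10, a coding exon of 447 nt. No annotated transcript removes it. It begins with GT and ends with AG on the strand of the gene, at percentiles 55.0 and 32.7, and these ends are shown because the annotation does not hold them.
ATU2AF65A exon 10, 5′ splice site of the inner stretch (chr4:17295379-17295403, minus strand): gtgaagGTgaggagacctagtgact
ATU2AF65A exon 10, 3′ splice site of the inner stretch (chr4:17295293-17295317, minus strand): tgctgttggtctgactccAGgtgct
Removal of the 100 nt shifts the frame, and the coding length falls from 1722 to 1026 nt.

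Both U2AF large subunit genes had a cassette in the corresponding intron. In ATU2AF65A, a cassette of 58 nt (17296388 to 17296445) lies in intron 4 and was listed for chilled smeb alone (FDR 0.043 in the authors' deposited table, rank 1645 of 10308). In U2AF65B, a cassette of 38 nt (chromosome 1, 22425366 to 22425403, plus strand) also lies in intron 4. Its FDR in the authors' deposited tables was 3.83e-07 for chilled Col-0 and 0.0471 for chilled smeb, at ranks 337 of 9710 and 1671 of 10308. Its kind is given as multiple cassette, although only this interval is listed. Both smeb values are close to the highest listed FDR of that table, 0.0496. Intron 4 is the longest intron of each gene (433 and 630 nt), interrupts a codon after its first base in each, and is followed in each by an exon of 77 nt, of which 51 bases are identical. The coding sequences of the pair are 69.8% identical. The cassettes themselves aligned at 21 of 58 positions, and their sites are shown for comparison.
ATU2AF65A cassette, 3′ splice site (chr4:17296441-17296465, minus strand): tgcttttctgttttggtaAGgcaac
ATU2AF65A cassette, 5′ splice site (chr4:17296369-17296393, minus strand): gtatggGTattgctcatcctcagta
U2AF65B cassette, 3′ splice site (chr1:22425346-22425370, plus strand): ttgtttttgattttacgtAGtttgg
U2AF65B cassette, 5′ splice site (chr1:22425398-22425422, plus strand): actttgGTaagctgcaattttattg
None of these 4 sites is annotated. The sites of the U2AF65B cassette were at percentiles 65.3 and 49.4 and those of ATU2AF65A at 27.1 and 6.45. Neither length is a multiple of 3. With the cassette, the coding length is 765 nt in place of 1722 nt in ATU2AF65A and 744 nt in place of 1770 nt in U2AF65B, with 6 and 7 exon junctions after the new stop codon.

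**Figure D2:**
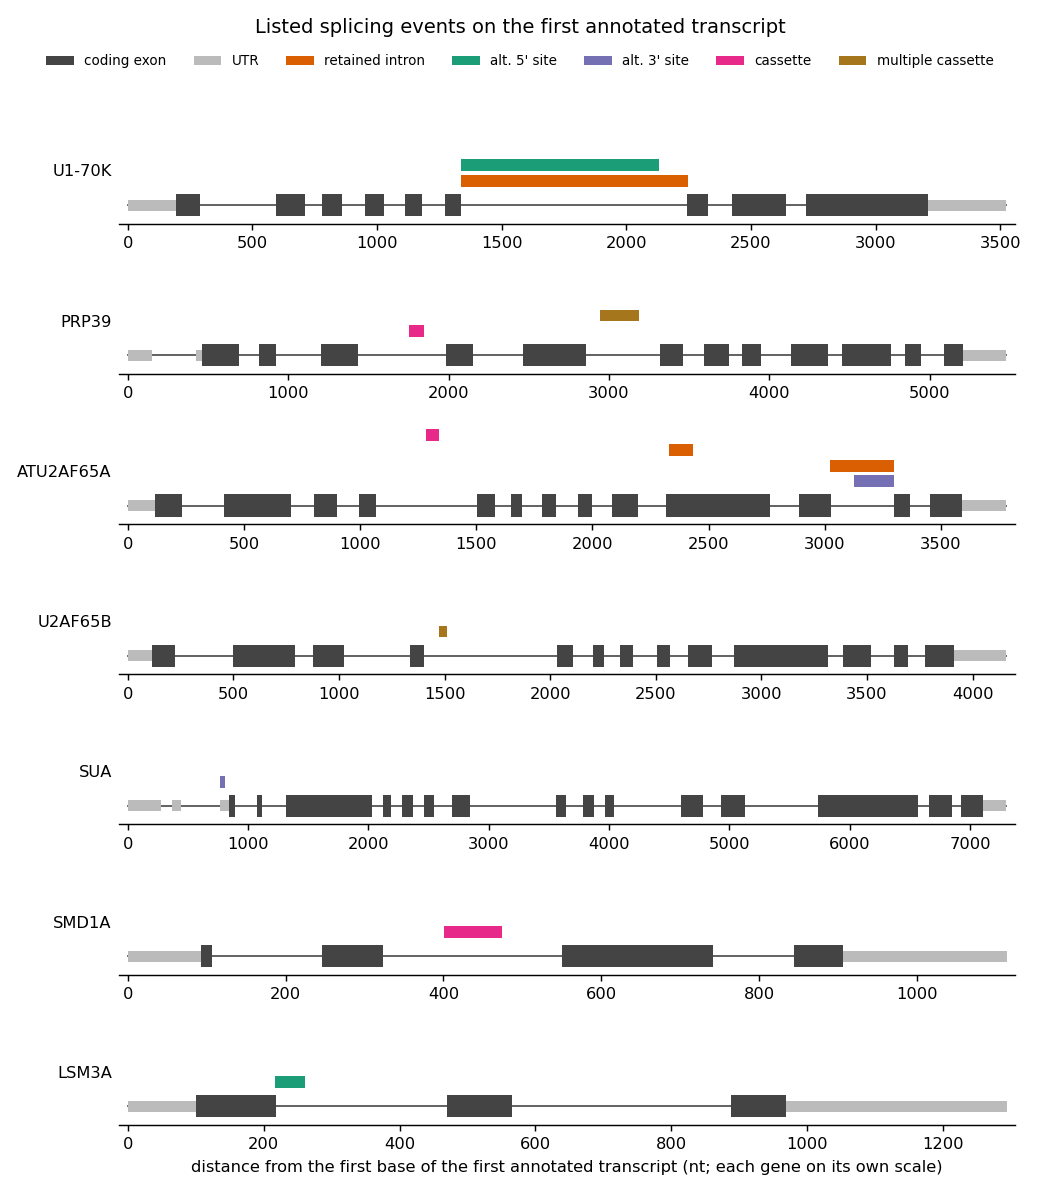
The 7 genes with a listed event are drawn from the first base of their first annotated transcript, with coding exons in dark grey, untranslated parts in light grey and the listed intervals above in colour by kind. The events of U1-70K share intron 6, and the cassettes of ATU2AF65A and U2AF65B each lie in the longest intron.

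SUA, a homologue of human RBM5 that controls the splicing of ABI3, had a single event, listed in chilled Col-0 (FDR 0.0133 in the authors' deposited table, rank 992 of 9710). It is an alternative 3′ splice site that moves the start of exon 3 by 39 nt within the 5′ UTR (chromosome 3, 20073799 to 20073838, plus strand), 34 nt before the start codon. The annotated site was at percentile 58.5 and the downstream site, which is not annotated, at 16.8. The coding length of 3024 nt is the same in either form. SUA is in the authors' SmEb-dependent list, where its entry has the FDR of this call in chilled Col-0. It is one of 5 genes under regulation of RNA splicing in the authors' deposited table of enriched terms. That term had an adjusted p of 0.133 there. The absence of SUA from the table of chilled smeb is no test of a difference between the genotypes. That table lists 1359 events but runs to rank 1693, so it leaves out events that ranked above its last.

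SMD1A encodes an Sm D1 protein. Its cassette of 73 nt (chromosome 3, 2423454 to 2423526, plus strand) in intron 2 was listed for smeb at 22 °C (FDR 0.0271 in the authors' deposited table). That is the highest FDR of the 22 °C table, at rank 43 of 10657. The start of the cassette is that of an exon of AT3G07590.3, and its end is not annotated. The coding length is 138 nt with the cassette and 345 nt without. The 5′ splice site was at percentile 3.05.
SMD1A cassette, 5′ splice site (chr3:2423521-2423545, plus strand): gaatagGTtgagtaaacacacagtt

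LSM3A encodes a subunit of the LSm rings. An alternative 5′ splice site of intron 1 (252 nt, chromosome 1, 7420488 to 7420739, minus strand), 43 nt inside the intron, was listed for chilled smeb (FDR 0.000751 in the authors' deposited table, rank 815 of 10308). The gene is in the authors' SmEb-independent list, where its entry has the FDR of this call in chilled smeb. LSM3A was not listed for chilled Col-0, so the list name is not read as a lack of effect of the mutation. U1-70K, PRP39, ATU2AF65A and U2AF65B, listed for both chilled Col-0 and chilled smeb, are in neither list. LSM3A is one of 7 genes under organelle assembly, at an adjusted p of 0.252 in the authors' deposited table of enriched terms. The coding length is 129 nt with the inner site and 294 nt with the annotated site. The sites, at percentiles 24.4 and 4.40, are shown because the inner one has no annotation.
LSM3A intron 1, annotated 5′ splice site (chr1:7420721-7420745, minus strand): cttcacGTacgttcttaaccactcg
LSM3A intron 1, inner 5′ splice site (chr1:7420678-7420702, minus strand): ccagatGTgatctttttcgattttg

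SmEb, the gene mutated in smeb-1 and smeb-2, and its paralog SmEa encode the Sm E protein. Neither was listed in any table. SmEb has 2 annotated transcripts that differ by 4 nt at the 3′ splice site of intron 4 and code for 267 and 237 nt, and that difference was not listed. SmEa has 1 annotated transcript. The coding sequences of the paralogs are identical at 235 of 267 positions (88.0%), with no identical run longer than 26 nt.

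Some features of the 12 events were not used in the choice of genes. All 24 splice sites, with a site shared between events counted for each, read GT or AG on the strand of the listed gene. Whether the calling of events admitted other bases is not stated, so nothing is read from this. None of the intervals overlaps another annotated gene. In 5 events every site is annotated. Of the 12 lengths, 4 are multiples of 3. Without multiple cassettes these are 3 of 10 (30.0%), near the 34.1% of 1751 such events among all listed events. Built into the first annotated transcript, 10 events shorten the coding sequence, in each case with at least 1 exon junction after the new stop codon; only the paired exons of PRP39 lengthen it and only the SUA event leaves it as it is. The distance from the new stop codon to the last junction ran from 59 nt for the upstream 3′ splice site of ATU2AF65A to 1664 nt for the PRP39 cassette. The tables hold neither transcript levels nor directions, so decay of these forms was not tested. Of the 10 events inside an intron, 6 lie in the longest intron of the gene (60.0%), beside 43.1% of the 852 such events among all listed events in genes with more than 1 intron. The median length of the host intron was 448 nt for the members and 226 nt for all. Among 32 further genes of the same families, 0 of 4 such events lay in the longest intron, with a median host intron of 301 nt. The member figures describe 9 chosen genes, and several events share an intron.

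**Figure D3:**
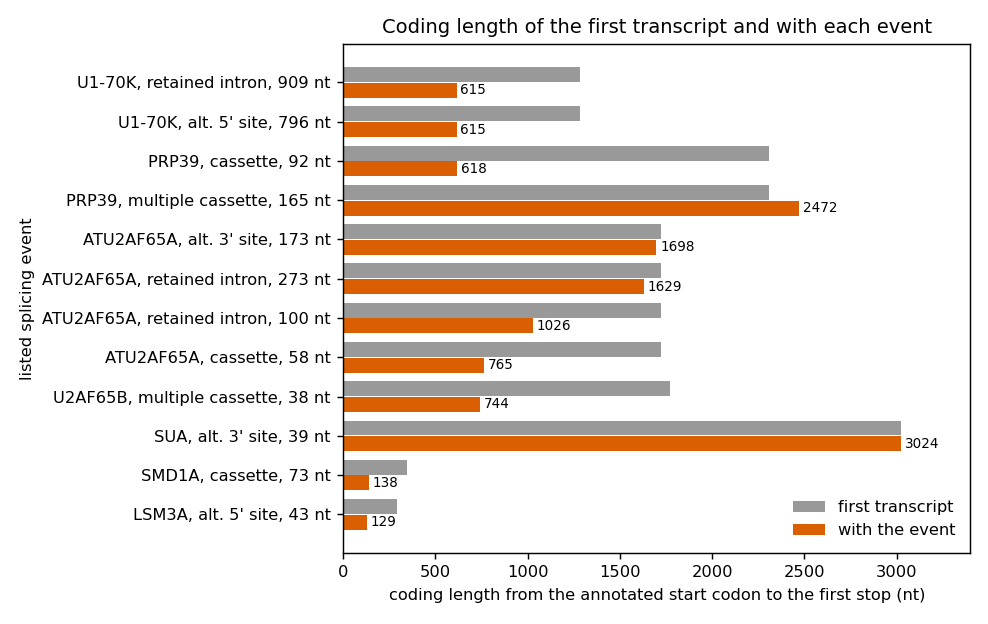
Bars give the coding length in nt from the annotated start codon to the first stop, for the first annotated transcript (grey) and for the same transcript with each of the 12 events (orange, value printed). The bars of 10 events are shorter than the grey bar, from 129 nt for LSM3A to 1698 nt for ATU2AF65A.

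**Figure D4:**
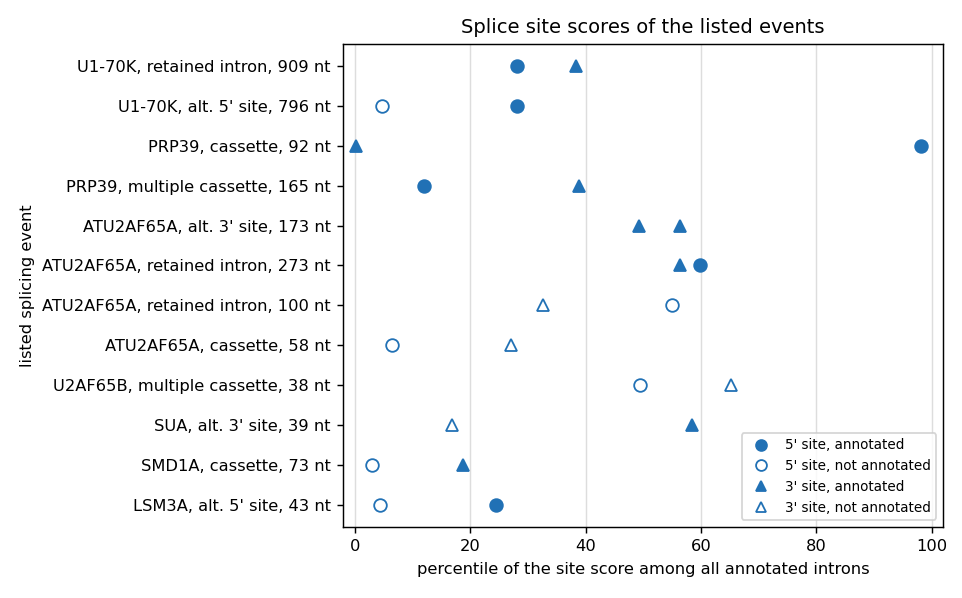
Each point is a splice site of an event, placed by the percentile of its score among all annotated introns, with circles for 5′ sites, triangles for 3′ sites, and filled symbols where the site is annotated. The sites not annotated in U1-70K, SMD1A and LSM3A lie under percentile 5, and those of U2AF65B lie at 49.4 and 65.3. Those of ATU2AF65A run from 6.45 to 55.0, and that of SUA lies at 16.8.

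Beyond the 9 genes, 32 further genes of the same families were looked up from a list of 41. In chilled Col-0 3 of these 32 were listed, with 4 for smeb under chilling and 0 at 22 °C, against 4.68%, 4.52% and 0.112% of the 24197 annotated genes with an intron. At an FDR under 0.01 they numbered 3, 4 and 0 in that order (3.39%, 3.74% and 0.0951% of all such genes), and at an FDR under 0.001 they numbered 1, 3 and 0 (2.3%, 2.8% and 0.0744%). More genes have an annotated intron than events were tested, so many of these genes had no tested event. The counts among the 32 therefore cannot be set against these shares. All 4 listed genes of the 32 belong to the U1 group. Of the 11 U1 genes, 6 were listed in chilled smeb and 5 in the table of Col-0. Of the 13 Sm genes, only SMD1A had an event, and of the 11 LSm genes only LSM3A. The U2AF small subunit genes ATU2AF35A (AT1G27650) and U2AF35B (AT5G42820) and the branch-point protein gene AT5G51300 were not listed. Since 7 of the 9 members were taken from these families because they were listed, shares over complete families are no independent result.

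**Figure D5:**
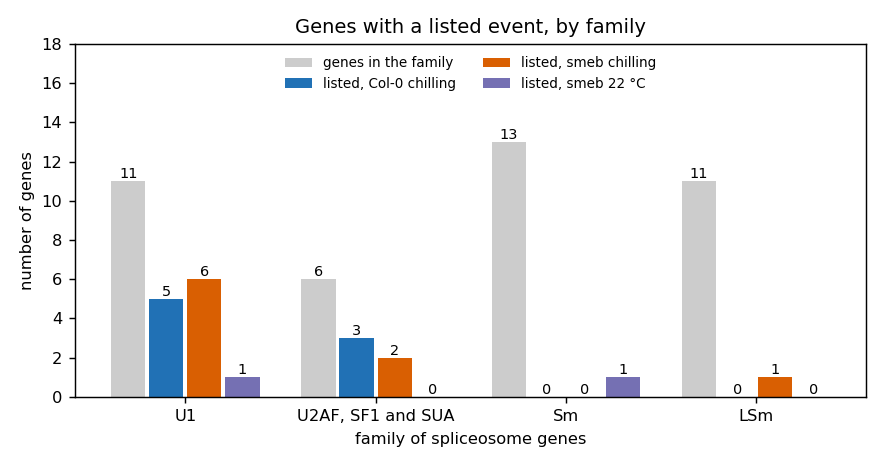
Bars give the number of genes in each of 4 families (grey) and the number with a listed event in each of the 3 tables (colours). U1 genes stand at 5 and 6 of 11 in the chilling tables, Sm genes at 0 of 13 in both.

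The 3 LUC7-related genes of the list, whose yeast relative is a U1 protein, were listed in both chilling tables. They are part of the U1 group and were not set as a group beforehand, so nothing is read from their count. UNE6 (AT3G03340) had a cassette in intron 9, of 38 nt in Col-0 (FDR 0.000375) and 41 nt in smeb (FDR 2.21e-09), by the authors' deposited tables. The cassettes end at the same base and start at tandem AG dinucleotides 3 nt apart, so the tables share the gene but not the event. AT5G17440 had a cassette of 50 nt in its own intron 9, at an FDR of 0.0065 in Col-0 and 0 in smeb in the authors' deposited tables. The cassettes of this pair were identical at 38 of 52 aligned positions for the longer UNE6 form (73.1%) and 35 of 52 for the shorter (67.3%). The longest identical run was 17 nt for either form. The whole host introns were identical at 214 of 334 aligned positions (64.1%), with a run of 18 nt. The sites of the cassettes read alike, and none of them is annotated.
UNE6 cassette, 3′ splice site of the longer form (chr3:788933-788957, plus strand): gtacctcctcctttcaccAGcaggc
AT5G17440 cassette, 3′ splice site (chr5:5752604-5752628, plus strand): ttgtacctccttttcaccAGcaggc
UNE6 cassette, 5′ splice site (chr3:788988-789012, plus strand): ataaatGTgcgttcttttcttgatt
AT5G17440 cassette, 5′ splice site (chr5:5752668-5752692, plus strand): ataaatGTgcgttctttcttgattt
With the cassette, the coding length is 900 or 897 nt in place of 1209 nt in UNE6 and 909 nt in place of 1215 nt in AT5G17440. AT5G17440 also had a cassette of 18 nt in intron 7, which keeps the frame, at an FDR of 0.0194 in Col-0 and 2.21e-05 in smeb in the authors' deposited tables. In AT5G51410, an annotated intron of 103 nt in the 3′ UTR was listed as retained. Its FDR in the authors' deposited tables was 0.00197 in Col-0 and 0 in smeb. AT5G51410.1 keeps this stretch within an exon. PRP40A (AT1G44910), a relative of a U1 protein of yeast, had an alternative 5′ splice site that shortens exon 27 by 26 nt, in smeb alone (FDR 0.00925 in the authors' deposited table). PRP40A is also in the authors' SmEb-independent list, with the FDR of that call.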

How the data were processed

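RNA-seq libraries of 12 seedling samples were processed by the submitters with Trimmomatic 0.32, TopHat2 2.0.13 and the TAIR10 build, per the submitters' processing notes. How events were called and filtered, whether strand was used and how alleles and replicates were pooled is not given in the sources used here. In 3 tables the authors deposited, per event, a column headed as an adjusted p-value and an FDR, per the file headers, and gene lists and enriched terms with p-values and a count of genes in 4 further tables. No column holds values per sample (0 columns), so no test across samples, interval or depth could be given.

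Repeated rows were counted a single time. The number of tested events was recovered from the ratio of these columns under the Benjamini-Hochberg rule. It was the smallest number, up to 40000, whose share of whole ranks came within 2 percentage points of the best share (tolerance 0.0001). Of events with p above 0, 85.3%, 88.4% and 87.0% then had whole ranks in chilled Col-0, chilled smeb and smeb at 22 °C. On simulated data, this search recovered the number for 3 of 3 tables. The simulated FDR was built by that same rule, from unrounded p-values without zeros or repeated rows. It therefore checks the recovery and not the reading of the column. The column headed as adjusted was read as the p-value before FDR adjustment, an inference from the whole ranks that no header states. The tested totals, the shares of tested events and the ranks rest on it. Positions are 1-based on TAIR10; annotation and sequence came from RefSeq TAIR10.1, whose gene bounds contain 96.9% of events; with 1 base removed at either end, 76.6% of 431 intervals of retained introns are annotated introns. The first annotated transcript by name was altered by each event and translated from its start codon; unaltered, 99.8% of 48147 annotated coding transcripts returned their annotated coding length. Splice sites were scored over 9 bases (5′) or 18 bases (3′). Python 3.11.15 with numpy 2.4.6, Biopython 1.88 and matplotlib 3.10.9 were used.

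All 9 members, all their events and every listed gene of the 41-gene list were named. Members, lists and alternatives were chosen with earlier results of these data known. Alternatives were FDR under 0.01 or 0.001, repeated rows kept, looser matching of events, and ends within 2 bases of the annotation.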

Additional observations from a re-analysis of the deposited data

How the results depend on the processing

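Of 18 counts recomputed under an alternative, 15 stayed within 1.5 times the reported count. Some of the 15 could not change. The chilling tables have 0 repeated rows, and the 0 further genes at 22 °C cannot fall at a stricter limit. The member events at 22 °C went from 3 to 2 at an FDR under 0.01, which was counted as within that range. In smeb at 22 °C, the 3 member events became 1 at an FDR under 0.001, the alternative 5′ splice site of U1-70K, and 5 with repeated rows kept. Of the 3 further genes listed in chilled Col-0, 1 had an FDR under 0.001, UNE6. At an FDR under 0.01, 8 of 10 member events remained in chilled smeb and 7 of 8 in chilled Col-0. The 7 shared events and the 5 fully annotated events were the same in number under every matching rule tried. No paired analysis was possible because no column carries values per sample, and leaving out a replicate was not possible for the same reason. Depth per library is unknown, so an absent listing cannot be read as an absent event.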
